A study of Homo sapiens with 18 samples.

Results

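The RNAs recovered with an R-domain mutant of ADAR3 were described relative to an empty vector, for every gene with a mean normalized count of at least 50 in the authors' deposited comparison of R-Mutant with control. This rule kept 13515 of the 60666 Ensembl gene IDs in that table, and these 13515 genes held 99.5% of its summed mean count. All of them had been tested in that table, which tested 21120 IDs. The cells were U373-MG, an established human glioblastoma line, transduced with a retrovirus. The control cells carried the empty vector with its antibiotic resistance gene, and the R-Mutant cells carried FLAG-tagged ADAR3 with a mutated R-domain. Both were grown in G418 at 0.2 mg/ml, crosslinked with UV light at 150 mJ/cm2 and sonicated. RNA was then sequenced from the whole lysate (input) and from the FLAG immunoprecipitate (IP). The comparison rests on 12 of the 18 libraries of the series, 3 each of control input, control IP, R-Mutant input and R-Mutant IP. The other 6 are 3 input and 3 IP libraries of cells that received the FLAG-tagged protein with its R-domain intact (ADAR3 WT). They enter where the proteins are set side by side. They also enter the input abundances, the mean counts compared between tables and the reading of the fold changes. ADAR3 was introduced into the cells, so its level is that of a transgene, and which residues of the R-domain were changed is not stated in the labels. Whether the replicates are separate cultures is not stated either, and p-values therefore reflect only how far these libraries scatter, which may be technical.

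ADAR3, the product of ADARB2, is a brain-enriched member of the family of adenosine deaminases that act on double-stranded RNA. It has double-stranded RNA-binding domains and a deaminase domain for which no editing activity has been found, and it can compete with the active ADAR enzymes for their substrates. Its N-terminal R-domain is rich in arginine and binds single-stranded RNA. The study addressed how this domain shapes the binding of ADAR3 to RNA on a global scale.

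The tables pair Ensembl IDs with no symbol, biotype or position, and 0 of the 13515 genes could be matched to a symbol through the RefSeq table at hand. Genes are therefore not named or sorted into RNA classes here, no sequence is shown, and 4 IDs stand for the largest or most distinctive responses. They were chosen after their values had been seen. For the same reason the astrocyte markers of the labelled glioblastoma cells could not be looked up. The tables hold fitted comparisons, so values per library are not given, and how deeply each library was sequenced is unknown. The mean normalized count and the standard error (SE) of each fold change stand in for precision. IP enrichment is given on the log2 scale, as IP over input in R-Mutant cells relative to the same quotient in control cells.

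The mutant protein and the empty vector differed in the IP enrichment of many RNAs. Of the 13515 genes, 1022 (7.56%) were enriched more strongly and 1614 (11.9%) less strongly in the R-Mutant IP than in the control IP, each over its own input (normal test of the fold change over its SE, Benjamini-Hochberg adjusted p under 0.05 over all tested IDs). Over all 21120 IDs tested in this table, the same rule called 5.38% higher and 7.95% lower. The remaining 10879 genes did not pass. By the authors' adjusted p under 0.05, a likelihood ratio test on several model terms at once, 3374 genes with a positive and 4497 with a negative fold change passed, where 40.8% of all tested IDs did. With the ratio of fold change to SE centred and divided by its robust spread over the 13515 genes, only 13 higher and 65 lower genes passed, where 0.369% of all tested IDs did. The higher genes had a median log2 fold change of 0.97, or 1.96-fold, with 10% of them under 0.68 and 10% over 1.59. The lower genes had a median of -1.09, or 2.13-fold lower, and 10% of them lay under -1.75. Large differences were more often falls. A log2 fold change of at least 1 was reached by 475 of the higher genes and of -1 or below by 979 of the lower genes. For a 4-fold difference these numbers were 40 and 85. Counts were normalized between libraries, so each value is relative to the other RNAs, and a lower value can also arise where other RNAs gain. Enrichment is taken over input, so a lower value can arise where input rises as well. The input of R-Mutant cells was not compared with that of control cells on its own.

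**Figure D1:**
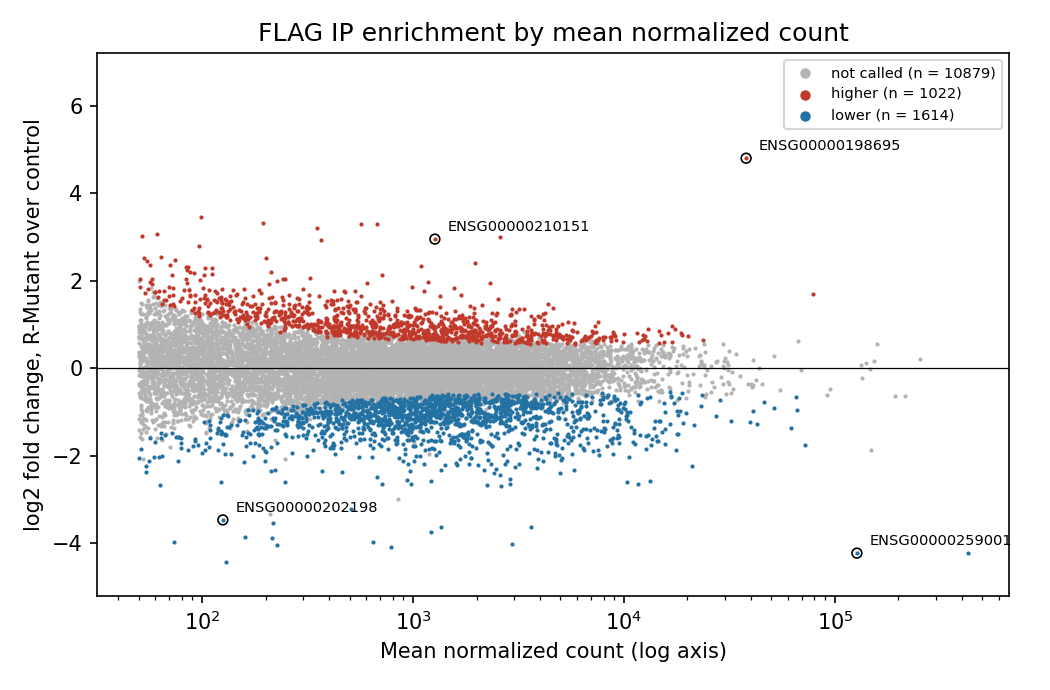
Each point is one of the 13515 genes, with its mean normalized count on a log axis and its log2 fold change of IP enrichment in R-Mutant over control. Higher calls (1022) are red, lower calls (1614) are blue and the 4 IDs given in the text are circled. The lowest means need larger fold changes to be called, and ENSG00000198695 stands above all other genes at a log2 fold change of 4.80.

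A pair of IDs illustrates the RNAs that rose most clearly in the R-Mutant IP. ENSG00000198695 had the largest fold change and the largest ratio of fold change to SE of all 13515 genes. The authors' deposited table gives it a log2 fold change of 4.80 ± 0.24 (SE), or 27.8-fold (95% interval 20.1 to 38.3), at a mean normalized count of 37919 (normal test adjusted p 7.25e-87). It ranked 37 by mean count, so it was also among the most abundant RNAs of these libraries. ENSG00000210151 had the next largest ratio of fold change to SE among the genes that rose. The authors' deposited table gives it a log2 fold change of 2.95 ± 0.24, or 7.71-fold (95% interval 5.56 to 10.7), at a mean of 1269 (normal test adjusted p 2.23e-30). Both rises were far larger than the median SE of 0.26 among the higher genes.

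The genes that fell furthest included very abundant RNA. The authors' deposited table gives ENSG00000259001 a log2 fold change of -4.23 ± 0.32, or 18.7-fold lower (95% interval 12.1 to 29.1), at a mean of 127087 (normal test adjusted p 7.59e-35). It ranked 12 by mean count and held 0.467% of the summed mean count of the 13515 genes. ENSG00000202198 fell as well, at a much lower mean of 125. The authors' deposited table has it at -3.47 ± 0.54 on the log2 scale, or 11.1-fold lower (95% interval 5.31 to 23.1; normal test adjusted p 1.79e-08). This call was lost with the rescaled ratio (adjusted p 0.219), while the other 3 IDs kept theirs. It had the 15th lowest fold change of the 13515 genes. Among the 50 genes of highest mean count, which held 14.7% of the summed mean, 2 were higher and 12 were lower. Over all 13515 genes, 7.56% were higher and 11.9% were lower. Genes of high mean count tend to have smaller SEs and so are called more easily. Together the lower genes held 17.6% of the summed mean count and the higher genes 6.81%.

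The same 4 IDs were compared with ADAR3 WT, the protein with an intact R-domain. The comparison of ADAR3 WT with control used the same control libraries, so its values are set beside those of R-Mutant without a further comparison. In the authors' deposited table of ADAR3 WT over control, the log2 fold change was 4.85 ± 0.24 for ENSG00000198695 and 2.65 ± 0.22 for ENSG00000210151. It was -4.67 ± 0.31 for ENSG00000259001 and -1.05 ± 0.54 for ENSG00000202198 in the authors' deposited table. The difference between the proteins was tested where R-Mutant is compared directly with ADAR3 WT. For ENSG00000198695 the authors' deposited table has a direct difference of -0.07 ± 0.19 (log2), with a 95% interval from -0.44 to 0.31. For ENSG00000210151 the authors' deposited table has 0.29 ± 0.18, with an interval from -0.07 to 0.64. For ENSG00000259001 the authors' deposited table has 0.43 ± 0.29, with an interval from -0.14 to 0.99. None of these 3 passed (normal test adjusted p 1.00 for each, as rounded), and their intervals leave out a 2-fold difference in either direction. ENSG00000202198 did pass, and the authors' deposited table has it at -2.41 ± 0.44 (log2), or 5.33-fold lower in R-Mutant than in ADAR3 WT (95% interval 2.92 to 9.71; normal test adjusted p 0.00111).

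**Figure D2:**
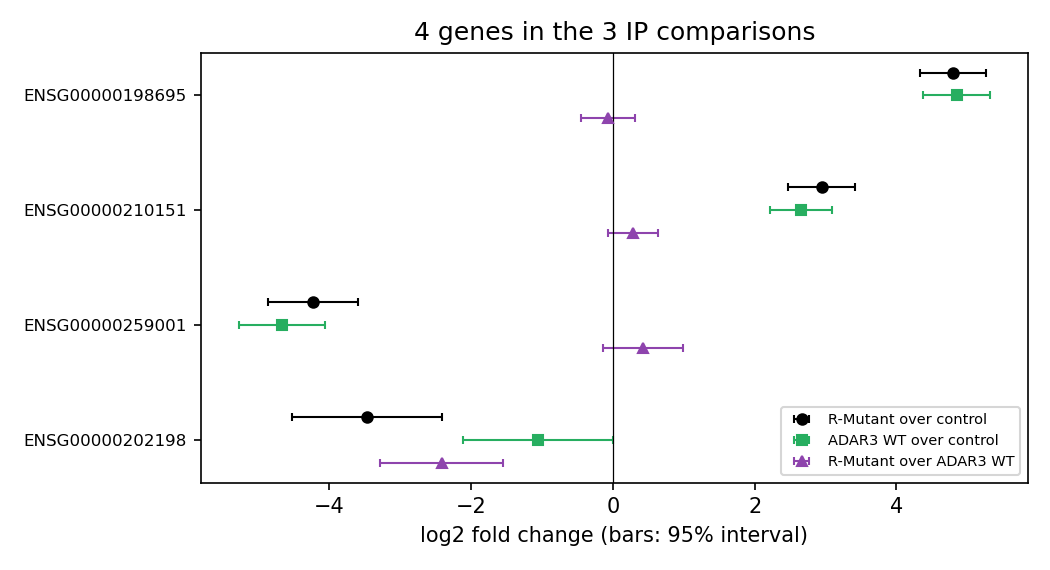
Log2 fold changes of IP enrichment for 4 IDs in R-Mutant over control (circles), ADAR3 WT over control (squares) and R-Mutant over ADAR3 WT (triangles), with bars for the 95% interval. For 3 IDs the direct comparison of the proteins crosses 0, and for ENSG00000202198 its interval runs from -3.28 to -1.55.

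By the normal test, ENSG00000202198 was the only one of the 13515 genes to pass in the direct comparison, where 0.00428% of the 23385 IDs tested passed. At an unadjusted p under 0.05, 71 of the 13515 genes differed between the proteins, 20 higher and 51 lower in R-Mutant. Over all IDs tested, 0.624% reached this level, a share under the nominal 5%, so the deposited SEs made this test conservative. With the ratio rescaled to its robust spread, 79 of the 13515 genes passed, 12 of them among the 1022 that rose over control, where 0.723% of all tested IDs passed. The 1022 genes that rose in R-Mutant over control had a median log2 fold change of 0.01 in the direct comparison, against -0.02 for all 13515 genes. The central 80% of them lay between -0.16 and 0.21. None of them passed the normal test, and 8 had an unadjusted p under 0.05, 3 lower and 5 higher in R-Mutant. The 95% interval of the direct comparison left out a 2-fold difference in either direction for 997 of them (97.6%) and a 1.5-fold difference for 705 (69.0%). The other 25 had a median mean count of 73.0, at the low end of the range. Over the common control, the 1022 genes had a median IP enrichment of 0.97 for R-Mutant and 0.97 for ADAR3 WT. The genes were picked against the control libraries, which enter both values, so this likeness is partly built in. These genes were picked with the R-Mutant libraries, which also enter the direct comparison and move it upward in such a set.

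Among the 40 genes at least 4-fold higher in R-Mutant than in control, the direct log2 fold change ran from -0.27 to 0.84, with a median of 0.22. None passed the normal test, and the interval left out a 2-fold difference for 31 of them. Their median enrichment was 2.34 for R-Mutant over control and 2.19 for ADAR3 WT over control. These 40 genes had a median SE of 0.48, against 0.28 over all 13515 genes. The 1614 lower genes had a median direct log2 fold change of -0.11, with the central 80% between -0.28 and 0.06. The interval left out a 2-fold difference for 1511 of them (93.6%). Their medians over the common control were -1.09 for R-Mutant and -1.01 for ADAR3 WT. As with the higher genes, the shared R-Mutant libraries move this direct value away from 0. The shared control libraries draw the medians over control together, here and for the 40 genes. Among the 85 genes at least 4-fold lower, the interval left out a 2-fold difference for only 51. Their direct log2 fold changes had a median of -0.18, with the central 80% between -0.51 and 0.70. By the normal test, 9 of these 85 had an unadjusted p under 0.05, 3 lower and 6 higher in R-Mutant, and 1 passed after adjustment. Similar values for both proteins were thus less often shown for the strongest falls.

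**Figure D3:**
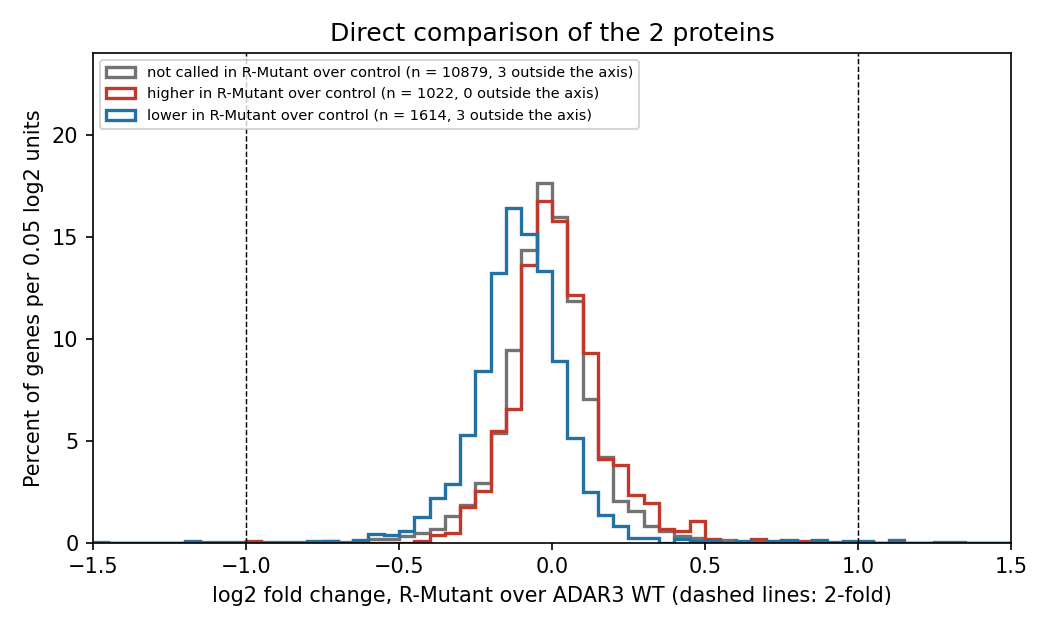
Distribution of the direct log2 difference between R-Mutant and ADAR3 WT, in percent of genes per 0.05 log2 units, for genes that were higher (1022), lower (1614) or not called (10879) in R-Mutant over control. The 3 distributions overlap and lie almost wholly inside the dashed 2-fold lines, with medians of 0.01, -0.11 and -0.02.

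The balance between the directions changed with the mean count, which includes the R-Mutant IP libraries. Enrichment raises this mean, and 50 is also the rule's limit. The lowest range therefore favours higher genes in part by construction. Among the 1390 genes with a mean from 50 to under 100, 58 (4.17%) were higher and 29 (2.09%) were lower. Among the 2235 genes from 200 to under 500, 9.80% were higher and 10.1% were lower. Among the 1035 genes at 5000 or above, 75 (7.25%) were higher and 193 (18.6%) were lower. The median log2 fold change over each whole range, called or not, went from 0.18 in the lowest to -0.13 between 500 and under 1000, and it was -0.04 in the highest. Precision moved along with this. The median SE was 0.52 in the lowest range and 0.23 in the highest. The smallest fold change that passed was 2.29-fold in the lowest range and 1.47-fold in the highest. These are the smallest of each range and not detection limits, since genes with a larger SE needed a larger fold change to pass. Few calls at low means thus do not show that low-abundance RNAs stayed the same.

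**Figure D4:**
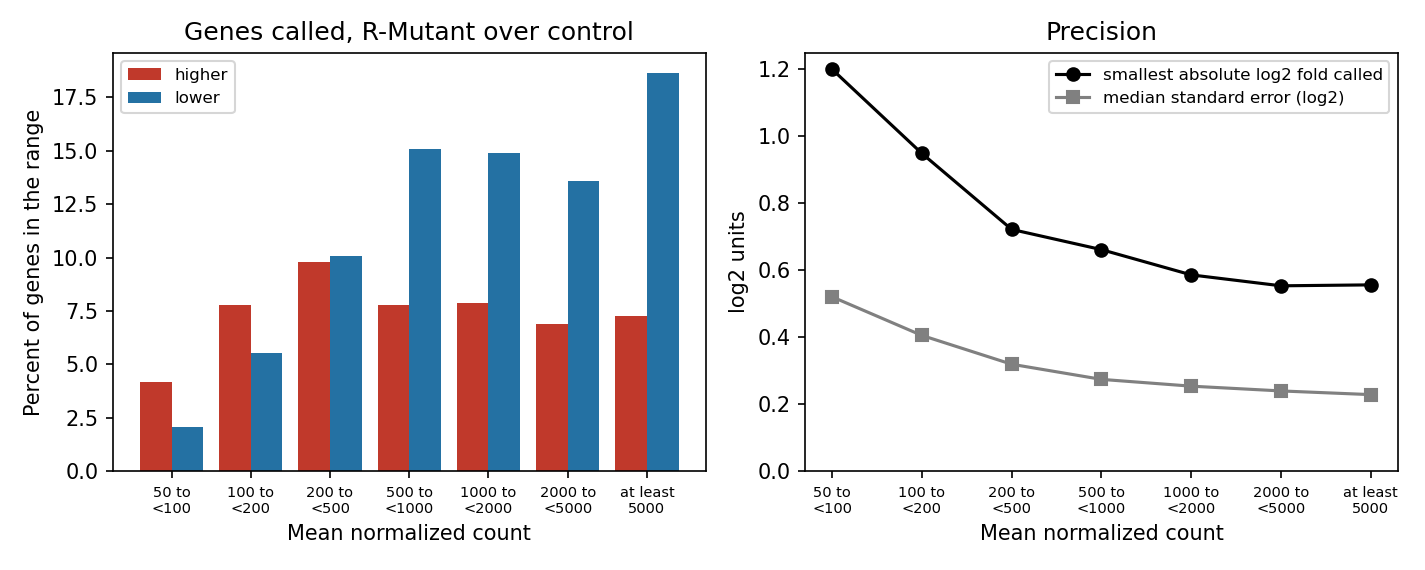
Left, percent of genes called higher (red) and lower (blue) in R-Mutant over control within 7 ranges of mean normalized count. Right, the smallest absolute log2 fold change called (circles) and the median standard error (squares) in the same ranges, which fall from 1.20 to 0.56 and from 0.52 to 0.23.

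The 3 genes just inside the rule's limit had log2 fold changes of 0.71, 0.36 and 0.28 in the authors' deposited table. The 3 just outside had values of 0.55, 0.72 and -0.47 in the authors' deposited table. With a mean from 50 to under 60, 5.65% of 372 genes were called, and from 40 to under 50 the share was 4.74% of 485 genes.

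A separate deposited table of input RNA, which holds ADAR3 WT and control but not R-Mutant, gave an input abundance for each gene. All 13515 genes were listed there. Of 7124 genes with an input mean of at least 1000, 6.09% were higher and 16.5% were lower in R-Mutant IP enrichment. Of 178 genes with an input mean from 10 to under 50, 18 (10.1%) were higher and 1 was lower. Such genes reach the rule's mean of at least 50 more readily where their R-Mutant IP counts are high. This skew is therefore partly built in. The mean over the IP comparison was then set against the input mean. That mean includes the IP libraries themselves, so this is a description of where the counts lay and not an independent measure. Of 2342 genes whose mean was 1 to under 2 times the input mean, 637 (27.2%) were higher and 11 were lower. Of 11060 genes at 0.5 to under 1 times the input mean, 370 (3.35%) were higher and 1557 (14.1%) were lower.

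The mean count of a gene over 12 libraries was also compared between tables. The mean of the R-Mutant and control libraries was at least 1.5 times that of the R-Mutant and ADAR3 WT libraries for 17 genes. Of these, 0 were higher and 9 were lower in R-Mutant over control, and their median log2 fold change was -2.37. In the opposite group, 259 genes had a mean with ADAR3 WT at least 1.5 times that with control, and 177 of them (68.3%) were higher and 2 were lower. Both means include the R-Mutant libraries, and the control libraries enter both the ratio of the means and the fold change. These counts therefore describe where the signal lay and are not an independent measure. The ratio of the means was 0.57 for ENSG00000198695 and 0.61 for ENSG00000210151. It was 1.26 for ENSG00000259001 and 1.11 for ENSG00000202198, and the median over all 13515 genes was 0.87.

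Lower genes were grouped in the order in which the table lists the IDs. The 3 IP tables use the same order, which is not the order of ID numbers, and what it follows is not stated. A gene listed directly after a lower gene was itself lower in 21.1% of 1613 cases, against 11.9% of all 13515 genes. A gene listed directly after a higher gene was itself higher in 14.1% of 1022 cases, against 7.56% of all. The log2 fold changes of genes listed next to each other had a Pearson r of 0.14 over 13514 pairs. It was 0.07 for genes 10 places apart and 0.03 for genes 50 places apart. Such pairs share libraries, and this is a description of the listing.

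One stretch of the listing held many of the strongest falls. From position 4190 to position 4253 among the 13515 genes, 49 of 64 genes (76.6%) were lower, 14 were not called and 1 was higher. The stretch was delimited after its values had been seen and was not tested. It contained 5 runs of at least 5 consecutive lower genes, the longest of 19, and 27 of the 85 genes that fell at least 4-fold. Its 49 lower genes had log2 fold changes from -3.22 to -0.93, with a median of -2.03, or 4.09-fold lower. They spanned mean counts from 59.0 to 7491. Their median was -1.77 in ADAR3 WT over control, with the same control libraries, which draw it toward the R-Mutant value. In the direct comparison their log2 fold changes ran from -0.63 to 0.10 with a median of -0.25, and 44 of 49 lay below 0. The genes were picked as lower with R-Mutant libraries that also enter the direct comparison, which moves these values downward. None of the 49 passed the normal test there, and the lowest unadjusted p was 0.0518. In input RNA of ADAR3 WT over control, their log2 fold changes ran from -0.83 to 0.32 with a median of 0.11. The lowest normal test adjusted p among them in input was 0.0996.

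In windows of 50 consecutive genes, the median number of lower genes was 5. The window inside this stretch had 36 lower genes, and the next highest of the 270 windows had 26. For higher genes the median was 3 and the highest count was 13 in a window. The last 15 genes of the list, ENSG00000198695 among them, fell in no window. No run of higher genes was longer than 5, and there were 2 runs of that length, against 11 runs of 5 or more lower genes. ENSG00000198695 and ENSG00000210151 are listed near each other. Of the 29 genes within 20 places of ENSG00000198695, which is close to the end of the list, 8 (27.6%) were higher and 1 was lower. Those 8 include ENSG00000210151, which was itself picked for its rise. They had log2 fold changes from 1.69 to 3.46, and in the direct comparison of the proteins they ran from 0.03 to 0.84. Around ENSG00000259001, 0 of 40 genes were higher and 7 (17.5%) were lower. Around ENSG00000202198, 0 of 40 were higher and 5 (12.5%) were lower. Over all genes of the list, 7.56% were higher and 11.9% were lower. Whether the genes around these IDs differ from the whole list was not tested.

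**Figure D5:**
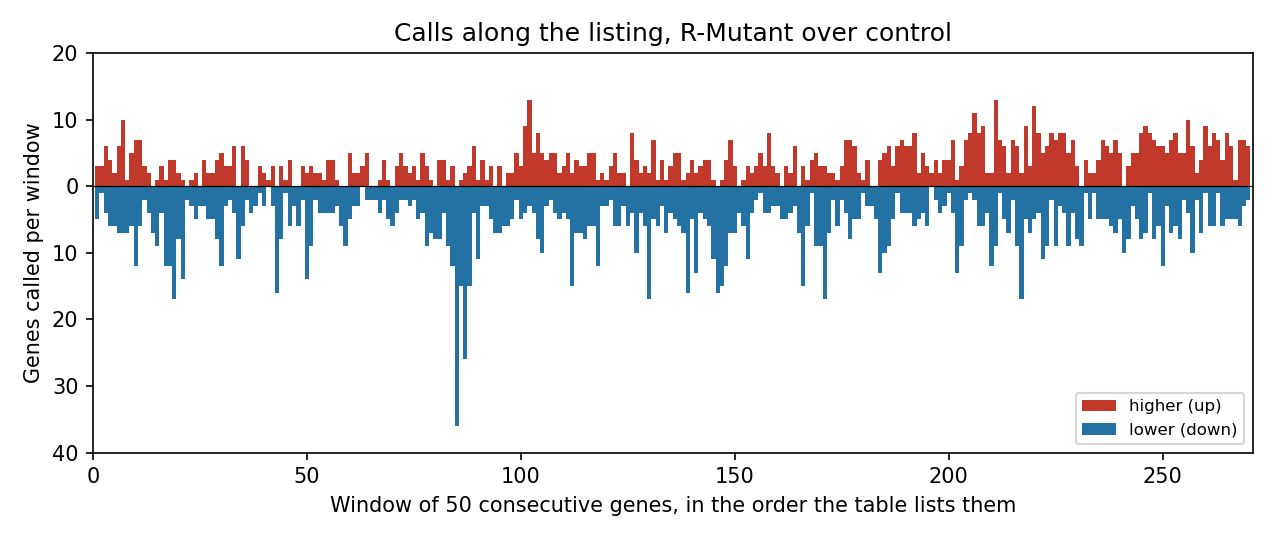
Number of genes called higher (red, upward) and lower (blue, downward) in R-Mutant over control in each of 270 windows of 50 consecutive genes, in the order the table lists them. Lower calls reach 36 in one window, where the median is 5, and higher calls reach at most 13. The last 15 genes of the list, ENSG00000198695 among them, are not shown.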

How the data were processed

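Per the labels' protocols, ribosomal RNA was depleted, strand-specific libraries were made from 1 ug of input RNA or all immunoprecipitated RNA, and 15 PCR cycles were run. Per the submitters' processing notes, STAR 2.7.7a, featureCounts, DESeq2 and GRCh38 were used. The sources used here do not name the annotation or the model formula. Per the file headers, the deposited tables give a mean signal (mean of normalized counts), a log2 fold change, its standard error, a test statistic (a score) and p-values with adjusted p-values.

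In the R-Mutant over control table, the deposited p-values are those of a chi-square statistic on 7 degrees of freedom within a relative tolerance of 0.001. That test covers more terms than the fold change, so the fold change was tested against its own deposited standard error with a two-sided normal test, adjusted by Benjamini-Hochberg over all IDs with a deposited adjusted p. The smallest ratio of fold change to standard error called was 2.71. The groups compared cannot by themselves give 7 degrees of freedom, so the authors' fit held further terms, which are not named. Whether replicates were among these terms is unknown. The fold changes were read as ratios of IP over input between genotypes, which no label states. The ID with the largest rise in input (log2 fold change 10.09 for ADAR3 WT over control in the authors' deposited table) had -3.01 in the authors' deposited IP table of the same genotypes, which an IP over IP ratio would hardly give. For R-Mutant over control the authors' deposited value of this ID was -2.585 ± 0.79 (SE), and it was called lower (normal test adjusted p 0.0129). For 13464 of 13515 genes, the fold change against control of R-Mutant minus that of ADAR3 WT equalled the direct one plus a constant 0.01, within 0.02 on the log2 scale.

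The members, lists, rules and tests were chosen with earlier results of these data known. The rule for named genes and the 34 gene lists needed symbols and could not be applied. The input table's 6 columns per library match no label and were not used. Alternatives covered the threshold, fold size, test, adjustment, minimum mean, centring and scale. The procedure was tested on simulated fold changes scattered by the deposited standard errors. That check cannot show whether these standard errors suit the data. Python 3.11.15, numpy 2.4.6, pandas 2.3.3, scipy 1.17.1 and matplotlib 3.10.9 were used.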

Additional observations from a re-analysis of the deposited data

Results flagged for a closer look

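ENSG00000202198 lay at -2.41 ± 0.44 (log2) in the authors' deposited table that compares R-Mutant with ADAR3 WT. It stands apart because its IP enrichment differed between the proteins in a direct test (normal test adjusted p 0.00111), while for ADAR3 WT against control the authors' deposited table has -1.05 ± 0.54, which did not pass (adjusted p 0.199 by the same test). Its mean normalized count was 113 in the direct comparison, and the authors' deposited table of input RNA has it at -0.14 ± 0.42 (log2) between ADAR3 WT and control. That input comparison holds no R-Mutant libraries, so it does not cover the input of R-Mutant cells. The part of any single library in the difference between the proteins was not tested.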

How the results depend on the processing

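No paired analysis was possible because the tables used hold fitted comparisons and no library values that match the labels. For the same reason leaving out replicates, a replicate block and other count models were not run. The gene list alternatives were not run because no ID matched a symbol. Of the 1022 higher and 1614 lower genes, 572 and 1060 passed at an adjusted p under 0.01, and 475 and 979 when a 2-fold difference was also required, both stricter by construction. By the authors' adjusted p there were 3374 and 4497. After the ratio of fold change to standard error was centred and divided by its robust spread of 2.01, 13 and 65 passed, with 16.7% of calls higher against 38.8%. That spread includes the differences between the genotypes themselves. The other settings (adjustment over the 13515 genes alone, centring on their median, and a minimum mean of 10, 100 or 200) gave 860 to 1187 higher and 1487 to 1788 lower. In R-Mutant over ADAR3 WT, 1 gene passed at 0.05 and at 0.01. There 2 passed with adjustment over the 13515 genes alone, 10271 by the authors' adjusted p, and 79 after rescaling by a robust spread of 0.53. Of these 79, 31 were higher and 48 lower in R-Mutant, with 12 among the genes higher over control, 15 among the lower and 52 among those not called. The number of genes found to differ between the proteins therefore depends on the test. Each of the 4 IDs was called alike at 0.01, with centring and by the authors' adjusted p. With the rescaled ratio, applied to the IDs after the data had been seen, ENSG00000202198 lost its call over control (adjusted p 0.219) and the other 3 kept theirs. Depth per library is unknown.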
